A study of Mus musculus with 15 samples.

Results

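The submandibular salivary gland (SMG) of the mouse embryo at E11.5, the first bud stage, was described here layer by layer, with its epithelium (n = 4 libraries) set against its mesenchyme (n = 4). These 8 libraries of 15 in the series were chosen by their labels, not by measured values, and every gene of the count table was used except the spike-in rows, 48709 genes in all. The other 7 libraries are parotid gland (PG) epithelium (n = 3) and mesenchyme (n = 4) at E12, and they share the fit, entering the scaling, the choice of genes tested, the estimate of spread and the last comparison. With only the 8 SMG libraries in the fit, 4615 genes were higher and 4724 lower in epithelium, 1068 and 1724 of them by at least 4-fold. All embryos were of the outbred ICR strain, and no treatment or transgene is named for any group. Samples are described as independent biological replicates. The sources used here do not say how the layers were separated or how many buds went into a sample, so adjusted p-values measure the spread between these samples.

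A salivary bud is an epithelial thickening of the oral lining that grows into neural crest mesenchyme. The layers build the gland by exchanging secreted ligands whose receptors often lie in the opposite layer, and FGF, WNT, hedgehog, EDA and neurotrophic factor signals are the textbook examples. Transcription factors fix the identity of each layer, while transporters and enzymes prepare the later work of the gland, which moves salt, water and proteins across the epithelium. In a bulk library a lower value can come from fewer cells of a type or from less RNA per cell, and these cannot be told apart.

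Depth ran from 27285248 to 29552734 counts per library in epithelium and from 22762834 to 25185378 in mesenchyme. The layer labels held against their defining markers. The summed level of 20 epithelial markers was 4725 to 5243 CPM (counts scaled to library size with TMM factors) in epithelium and 14.5 to 31.8 CPM in mesenchyme, and all 20 were higher in epithelium. Of 20 mesenchymal markers 19 were lower in epithelium, where their sum reached 346 to 711 CPM against 8674 to 10480 CPM in mesenchyme. Epithelium replicate 3 held the most of it, 7.33% of the mesenchymal level against 3.57 to 4.93% in the other 3 libraries, and the part of that RNA in any gene below was not tested. The mesenchyme samples also held more marker RNA of several other cell types. Their 15 endothelial markers summed to 654 to 850 CPM against 12.7 to 18.2 in epithelium, 15 macrophage markers to 46.4 to 82.8 against 5.38 to 9.85, 13 erythroid markers to 4371 to 6475 against 203 to 865, and 13 neuronal markers to 157 to 228 against 44.7 to 63.0. Skeletal muscle markers (15) summed to 65.9 to 295 CPM in mesenchyme, highest in replicate 4, and 8.43 to 11.1 in epithelium, where Mymk was at 0. Schwann precursor and crest markers (12) summed to 270 to 351 CPM in epithelium and 173 to 182 in 3 mesenchyme libraries, with 348 in mesenchyme replicate 3. Of these markers 7 were lower and 2 higher in epithelium. Erbb3, an epithelial gene of the list, alone had a mean of 192 CPM in epithelium and 35.4 in mesenchyme. Periderm markers (12) summed to 592 to 747 against 4.70 to 6.80 CPM. The 11 chondrocyte markers also summed to more in epithelium, at 1293 to 1447 CPM against 266 to 385 in mesenchyme, with 3 of 9 tested higher and 3 lower. Sox9, an epithelial gene of that list, had 135 CPM per kilobase of exon in epithelium and 4.25 in mesenchyme. The part of chondrocyte RNA in the sum was not tested. A list of 11 mitochondrial and stress genes kept as a sign of RNA quality summed to 7704 CPM in epithelium replicate 4, to 4479 to 5194 in the other 3 epithelial libraries and to 5011 to 8753 in mesenchyme.

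Genes were sorted by symbol or list into ligands, receptors, transcription factors, transporters or channels, and enzymes, 3997 protein-coding members in 74 families. The enzyme role also counts protease inhibitors (121 members, 44 tested, 10 higher and 19 lower in epithelium). More ligand and receptor genes were lower than higher in epithelium. Of 384 ligand genes 274 had enough counts to be tested, and 61 were higher and 126 lower in epithelium, with a median log2 difference (epithelium minus mesenchyme) of -0.67. Of 527 receptor genes 405 were tested, with 96 higher and 188 lower and a median of -0.60. The other roles were closer to even. Transcription factors had 225 higher and 288 lower of 845 tested (1034 members, median -0.07), transporters and channels 168 and 222 of 600 (789 members, median -0.20), and enzymes 286 and 309 of 888 (1263 members, median -0.02). Over all 18940 genes tested, 25.2% were higher and 26.7% lower in epithelium (edgeR, adjusted p under 0.05), with a median of 0.00. In 9370 of these genes the 4 libraries of epithelium did not overlap the 4 of mesenchyme. The naming rule asked for this in the widest-changing family members, so their lack of overlap below was fixed by the rule. The share of ligands that were lower was 45.99%, and that of receptors 46.4%, both above this background, while 22.3% and 23.7% were higher.

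Signalling genes also differed by more. By 4-fold or more, 38 ligands were higher and 87 lower in epithelium, as were 51 and 134 receptors, 88 and 124 transcription factors, 58 and 109 transporters or channels and 102 and 144 enzymes. The background at that size was 6.46% higher and 11.2% lower, against 13.9 and 31.8% of ligands and 12.6 and 33.1% of receptors. For transcription factors the shares were 10.4 and 14.7%, for transporters or channels 9.67 and 18.2% and for enzymes 11.5 and 16.2%. This background, too, was not limited to protein-coding genes. With epithelium replicate 3 left out, the same counts were 38 and 82 ligands, 51 and 136 receptors, 88 and 123 transcription factors, 56 and 108 transporters or channels and 97 and 141 enzymes.

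**Figure D1:**
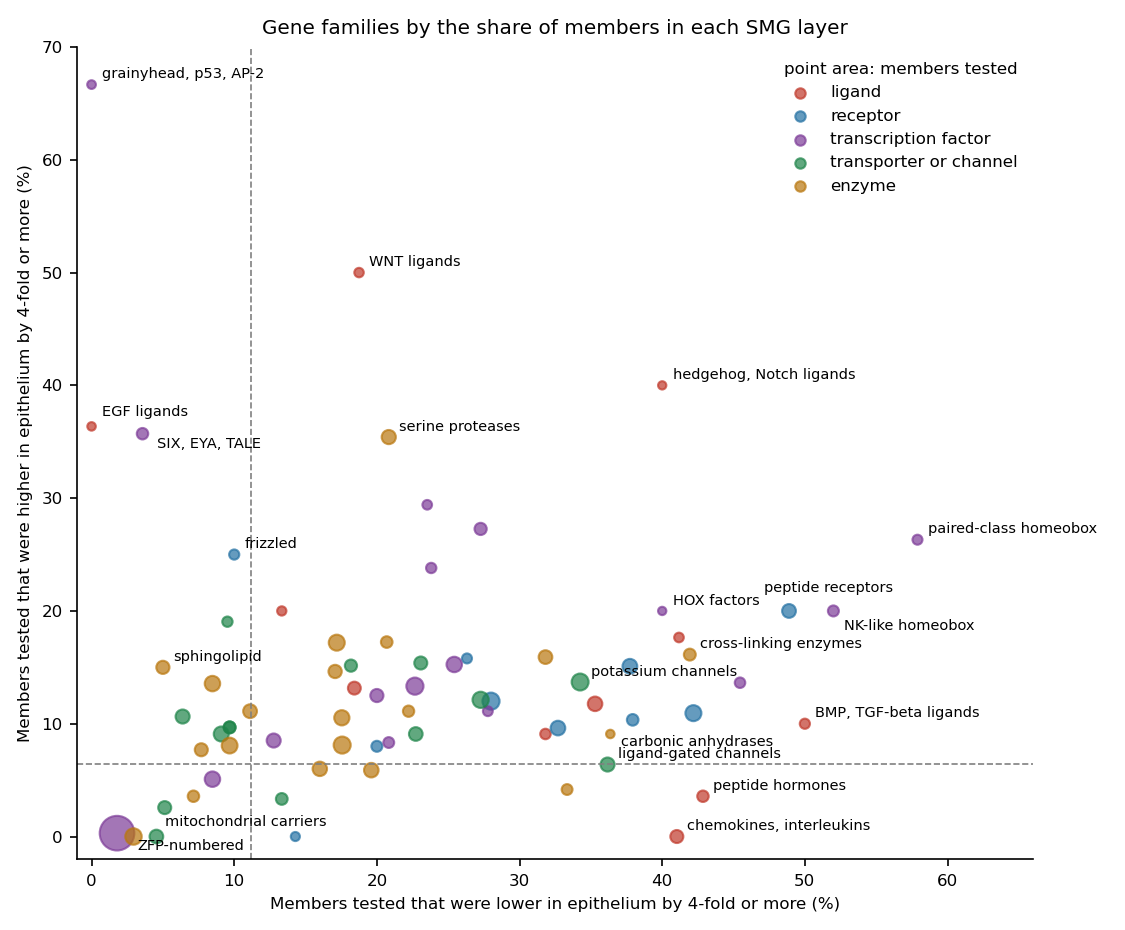
Each point is 1 of the 72 gene families with at least 10 members tested, its area growing with the number tested and its colour giving the role. The axes give the percentage of members tested that were lower (x) and higher (y) in epithelium by 4-fold or more. Dashed lines mark the share over all genes, protein-coding or not, 11.2% and 6.46%. Grainyhead, p53 and AP-2 factors and WNT ligands stand at the top, paired-class homeobox factors furthest to the right, and the ZFP-numbered factors near the origin.

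Among ligands, the WNT family had the largest share of members on the epithelial side. Of 16 WNT genes tested 8 were higher and 5 lower in epithelium, and all 8 were higher by at least 4-fold, with a family median of 3.19. Wnt9b, a canonical WNT of branching epithelia, had 12.4, 10.2, 13.1 and 14.3 CPM in epithelium and 0, 0, 0.302 and 0 CPM in mesenchyme. No mesenchyme library reached the lowest epithelial one, and only mesenchyme replicate 3 held any Wnt9b reads. Its log2 difference was 7.35 ± 0.67 (adjusted p = 6.7e-07). With mesenchyme replicate 3 left out, the layer was at 0 Wnt9b reads, and the CPM of epithelium was at least 310-fold higher than a floor of 3 reads over the other 3 mesenchyme libraries. On the mesenchymal side of the family stood Wnt2b (-5.09 ± 0.47), Wnt11 (-4.003 ± 0.53) and Wnt2 (-3.78 ± 0.60), each in log2 units. Families of the opposite lean were chemokines and interleukins, with 2 higher and 20 lower of 39 tested, and peptide hormones and neuropeptides, with 1 higher and 15 lower of 28. Lower members included Pf4 (-6.06 ± 0.79) and Ppbp (-5.33 ± 0.83), chemokines of platelets and their precursors. All 15 macrophage markers and 11 of 13 erythroid markers were lower in epithelium too, and their part in this family's count was not tested. Cxcl12, the chemokine that guides migrating cells through Cxcr4, had 22.5, 20.3, 24.5 and 19.99 CPM in epithelium and 361, 394, 331 and 411 CPM in mesenchyme. Edn3, an endothelin of crest-derived pigment cells and neurons, had 6.498, 5.001, 5.201 and 4.84 CPM in epithelium and 76.2, 96.6, 79.5 and 65.4 CPM in mesenchyme. Both were higher in all 4 mesenchyme libraries, and the log2 differences were -4.10 ± 0.39 and -3.88 ± 0.17. Penk, the enkephalin precursor, differed by -2.45 ± 0.58, and Apln, the ligand of the vascular receptor Aplnr, by -5.40 ± 0.46.

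Growth factor genes split member by member. Pdgfa (ENSMUSG00000025856, GRCm38 chromosome 5, 138976014 to 138997370, minus strand) binds the mesenchymal receptor Pdgfra. Pdgfa had 521, 518, 478 and 609 CPM in epithelium and 9.17, 9.41, 7.76 and 9.76 CPM in mesenchyme. Pdgfc, a second ligand of that receptor, had 353, 402, 321 and 378 CPM in epithelium and 40.004, 54.9, 26.1 and 57.8 CPM in mesenchyme. Igf1, the circulating and local growth factor (ENSMUSG00000020053, GRCm38 chromosome 10, 87858265 to 87937042, plus strand), had 4.998, 3.47, 19.1 and 3.51 CPM in epithelium and 878, 715, 988 and 711 CPM in mesenchyme. Thus every epithelial library exceeded every mesenchyme library for both PDGF genes, and the reverse held for Igf1, whose highest epithelial value was in replicate 3. The log2 differences were 5.88 ± 0.42, 3.02 ± 0.20 and -6.73 ± 0.64 (adjusted p = 1.07e-07, 1.71e-08 and 1.78e-06). Of the 22 tested PDGF, VEGF, HGF, IGF and KIT ligands 3 were higher and 11 lower. The third epithelial one was Kitl (0.95 ± 0.21), the ligand of Kit, and Hgf, the ligand of Met, differed by -6.40 ± 0.51. Vegfa was the most counted member without a call, at 111 ± 13.6 CPM (SD, n = 4) in epithelium and 95.4 ± 13.03 in mesenchyme (log2 difference 0.21 ± 0.14, adjusted p = 0.236). In the BMP, GDF, TGF-beta and activin family 3 of 20 were higher and 11 lower. Gdf5 of joint mesenchyme (-7.68 ± 0.50) and Tgfb2 (-3.11 ± 0.14) were on the mesenchymal side and Bmp7 (2.06 ± 0.21) on the epithelial side.

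Some neurotrophic and guidance ligand genes were among the epithelial ones. Neurotrophin-4 (Ntf5), a survival factor of sensory neurons, had 60.8, 59.3, 54.9 and 64.2 CPM in epithelium and 1.55, 0.884, 0.819 and 1.65 CPM in mesenchyme. Neurturin (Nrtn), the survival factor of parasympathetic neurons that innervate this gland, had 30.9, 40.7, 33.6 and 41.4 CPM in epithelium and 1.88, 3.304, 2.802 and 3.55 CPM in mesenchyme. Artemin (Artn), of the same family, had 11.96, 11.4, 9.23 and 14.6 CPM in epithelium and 1.55, 0.461, 0.259 and 0.564 CPM in mesenchyme. All 3 were higher in every epithelial library, by 5.60 ± 0.31, 3.66 ± 0.26 and 4.05 ± 0.62 log2 units (adjusted p = 1.99e-09, 1.65e-08 and 5.91e-05), and they were the 3 neurotrophic factors of 15 tested that were higher in epithelium, with 6 lower. The axon guidance ligands were even, 15 higher and 16 lower of 38 tested. Sema3d, a secreted semaphorin that repels axons, had 465, 449.9, 368 and 426 CPM in epithelium and 6.79, 5.03, 7.85 and 7.14 CPM in mesenchyme. Slit3, the ligand of Robo receptors, had 1.29, 1.39, 1.43 and 0.8498 CPM in epithelium and 59.8, 56.01, 58.97 and 71.002 CPM in mesenchyme. Sema3d was thus an epithelial and Slit3 a mesenchymal gene in all 8 libraries (log2 differences 5.995 ± 0.26 and -5.63 ± 0.51, adjusted p = 4.03e-10 and 7.67e-07). Sema3c (4.04 ± 0.46) and netrin-1 (Ntn1, 4.22 ± 0.37) were epithelial as well, and ephrin-B3 (Efnb3, -2.47 ± 0.15) was mesenchymal.

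Receptor genes of the epithelium were fewer but some differed widely. Rxfp1 (ENSMUSG00000034009, GRCm38 chromosome 3, 79641611 to 79737880, minus strand) is the receptor of the hormone relaxin. Rxfp1 had 155, 156, 128 and 80.6 CPM in epithelium and 0.963, 0.154, 0 and 0.323 CPM in mesenchyme. Fas, the death receptor of the TNF receptor superfamily, had 38.7, 44.6, 51.5 and 64.96 CPM in epithelium and 0.209, 0.346, 0.129 and 0.444 CPM in mesenchyme. Unc5a, a netrin receptor, had 103, 98.1, 113 and 115 CPM in epithelium and 1.09, 1.61, 1.68 and 1.85 CPM in mesenchyme. The 4 epithelial libraries of each gene lay far above the 4 of mesenchyme, with log2 differences of 8.48 ± 0.79, 7.43 ± 0.61 and 6.10 ± 0.51 (adjusted p = 1.27e-06, 2.54e-07 and 3.22e-07). Rxfp1 stood against its own family, since of 45 tested peptide receptors 11 were higher and 27 lower, with a median of -2.35. The thrombin receptor gene F2r was called at a much smaller difference (0.30 ± 0.08). Among frizzled and WNT co-receptor genes 10 of 20 were higher and 4 lower. Rnf43, an enzyme that clears frizzled proteins from the membrane, differed by 6.60 ± 0.54, Kremen2, a Dickkopf co-receptor, by 4.50 ± 0.40 and Fzd5 by 3.70 ± 0.42, while Fzd1 was mesenchymal (-2.24 ± 0.20). The planar polarity receptors Celsr1 and Celsr2 were both epithelial (4.88 ± 0.27 and 2.86 ± 0.23).

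Mesenchymal receptors covered amine, peptide, lipid and guidance signals. Of 64 tested receptors for amines, purines and lipids 10 were higher in epithelium and 34 lower, and of 53 receptor tyrosine kinases 12 and 27. Htr7, a serotonin receptor (ENSMUSG00000024798, GRCm38 chromosome 19, 35958734 to 36057507, minus strand), had 0.143, 0.104, 0.293 and 0.222 CPM in epithelium and 26.01, 46.9, 50.6 and 25.2 CPM in mesenchyme. Nrp1, a co-receptor of semaphorins and VEGF, had 1.18, 3.02, 5.24 and 0.4803 CPM in epithelium and 192, 196, 239 and 138 CPM in mesenchyme. Pth1r, the receptor of parathyroid hormone and its related peptide, had 1.29, 1.74, 3.15 and 0.998 CPM in epithelium and 81.8, 86.01, 82.8 and 95.4 CPM in mesenchyme. Every mesenchyme library exceeded every epithelial one for these genes, and for Nrp1 and Pth1r the epithelial maximum was in replicate 3. The log2 differences were -7.58 ± 0.38, -6.27 ± 0.60 and -5.59 ± 0.64 (adjusted p = 8.84e-10, 1.89e-06 and 9.37e-06). Ntrk2, the receptor of neurotrophin-4 and of BDNF, had 0.893, 1.01, 2.56 and 3.92 CPM in epithelium and 205, 129, 102 and 249 CPM in mesenchyme, so that this receptor and the ligand gene Ntf5 were high in opposite layers. Aplnr (-8.73 ± 1.14), an endothelial receptor, angiotensin receptor Agtr2 (-6.11 ± 1.26) and adenosine receptor Adora2a (-7.42 ± 0.47) were mesenchymal, and the endothelial markers, 15 of 15 lower in epithelium, moved with this side. Their part in these values was not tested.

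Levels per kilobase of exon allow genes to be compared with each other. Midkine (Mdk), a heparin-binding growth factor, was the ligand gene with the highest level per kilobase in both layers, at 714 ± 41.1 CPM per kilobase in epithelium and 734 ± 51.98 in mesenchyme (SD, n = 4), and its layer difference was not called (log2 -0.04 ± 0.09, adjusted p = 0.73). Pdgfa was the fifth in epithelium, at 170.4 ± 17.8 CPM per kilobase against 2.89 in mesenchyme. The receptor phosphatase gene Ptprf reached 134.5 ± 13.2 CPM per kilobase in epithelium. It was lower in mesenchyme, at 16.01 CPM per kilobase, and its layers did not overlap in any library (log2 3.07 ± 0.21, adjusted p = 2.23e-08). In mesenchyme the lysophosphatidic acid receptor gene Lpar1, chosen after its values were seen, came first at 153 ± 5.87 CPM per kilobase, against 21.6 in epithelium.

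Ligands and receptors were then joined into 163 known pairs, a chosen list that does not hold every known pair. Fgf9 was listed with Fgfr3 only. Ntf5 with Ntrk2 was not listed, and Ntrk2 entered with Bdnf, both mesenchymal. For 139 of the 163 pairs both genes were tested. A gene was placed in a layer when it was called with a difference of at least 2-fold, as 11.4% of all genes tested were in epithelium and 16.7% in mesenchyme. Both members were placed in 55 pairs. In 27 of them the ligand and the receptor lay in opposite layers, 12 with an epithelial ligand and a mesenchymal receptor and 15 the other way round. In 21 pairs both members were mesenchymal and in 7 both epithelial. The 21 included Apln with Aplnr, Angpt1 with Tek, Dll4 with Notch4, Wnt5a with Ror2 and Pthlh with Pth1r, and the part of endothelial RNA in them was not tested. The 7 were Fgf9 with Fgfr3, Eda with Edar, Wnt4 with Fzd6, Wnt10a with Fzd5, Jag1 and Jag2 with Notch1, and Sema4d with Plxnb1. Shh was placed in epithelium at a low level (0.431 CPM), and its receptor Ptch1 in neither layer. Of the 124 distinct ligands 29 were epithelial, 49 mesenchymal and 46 in neither, and of 105 distinct receptors 27, 43 and 35. Since 1 gene enters several pairs, the pairs are not independent, and no test was made of their distribution.

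Pairs running from epithelium to mesenchyme held PDGF and neurotrophic ligands. Pdgfra, the receptor of Pdgfa and Pdgfc, differed by -6.83 ± 0.91 log2 units. Gfra2, the co-receptor of neurturin, had 0.464, 0.868, 0.1099 and 0.0739 CPM in epithelium and 11.5, 21.2, 14.3 and 13.1 CPM in mesenchyme. Gfra3, the co-receptor of artemin, had 0.107, 0.313, 0.183 and 0.591 CPM in epithelium and 5.28, 4.99, 11.6 and 4.11 CPM in mesenchyme. Both were higher in every mesenchyme library, and Gfra3 was highest in mesenchyme replicate 3, which also held the most Schwann precursor and crest marker RNA of the mesenchyme, 348 CPM. Of the 12 markers in that list 7 were lower and 2 higher in epithelium, where the sum was 270 to 351 CPM, and the part of that RNA in Gfra3 was not tested. The remaining pairs of this kind were Efna5 with Epha3 (-6.09 ± 0.95), Sema3c and Sema3f with Nrp2 (-6.80 ± 1.03), Ntn1 with Dcc (-4.84 ± 0.66), Bmp7 with Acvr1, Agrn with Musk (-3.21 ± 0.75), Edn2 with Ednrb (-4.75 ± 0.77) and Il33 with Il1rl1. The ligands of the last 2 rest on few reads. Edn2 had 23 reads in epithelium and 2 in mesenchyme, a CPM ratio of 10.1 (95% counting interval 2.503 to 88.6), and its call (adjusted p = 0.0439) was lost with any 1 library but epithelium replicate 2 left out (adjusted p 0.0587 to 0.125). Il33 (1.49 ± 0.48, adjusted p = 0.0166) lost its call without epithelium replicate 3 or 4 or mesenchyme replicate 1 (0.0509, 0.0512 and 0.0536). Of the receptors, Dcc had 0.0798 CPM in epithelium and 2.45 in mesenchyme, and Musk 0.133 and 1.29. Neuronal and skeletal muscle marker RNA, given above, also summed to more in mesenchyme, and its part in Dcc and Musk was not tested.

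Pairs running from mesenchyme to epithelium held branching signals and neuropeptides. Fgf10 and Fgf7 were placed with Fgfr2, and Hgf with Met, the receptor tyrosine kinase of epithelial scattering. Met had 37.1, 47.8, 48.5 and 38.8 CPM in epithelium and 6.12, 5.19, 6.595 and 10.4 CPM in mesenchyme. Cxcr4, the receptor of Cxcl12, had 28.2, 22.7, 26.9 and 17.7 CPM in epithelium and 3.52, 2.96, 2.67 and 2.58 CPM in mesenchyme. Acvr2a, an activin receptor paired with Inhba (-2.52 ± 0.51), had 148, 156, 150.5 and 146 CPM in epithelium and 49.7, 51.7, 55.8 and 53.02 CPM in mesenchyme. Each receptor was higher in all 4 epithelial libraries, by 2.60 ± 0.30, 3.02 ± 0.31 and 1.51 ± 0.10 log2 units (adjusted p = 4.68e-06, 9.82e-07 and 1.3e-08). The neuropeptide genes Npy (-4.32 ± 0.81) and Tac1 (-5.14 ± 0.76) were mesenchymal and their receptor genes Npy1r (2.92 ± 0.45) and Tacr1 (3.40 ± 0.94) epithelial, all at low levels. Tac1 had 0.0357, 0.208, 0.0733 and 0.0739 CPM in epithelium and 2.56, 4.42, 2.93 and 4.68 in mesenchyme, and Tacr1 0.214, 0.417, 0.842 and 0.443 and 0, 0, 0.0431 and 0.121, the latter from 4 reads. The other pairs were Rspo3 with Lgr4, Wnt2 with Fzd9, Dkk2 with Kremen1, Dll1 with Notch1, Efnb1 with Ephb2, Sema6d with Plxna1, Gdf11 with Acvr2b and Tnfsf12 with Tnfrsf12a. Both members were epithelial for Fgf9 and Fgfr3, of which Fgf9 had 110.4, 107, 91.7 and 98.99 CPM in epithelium and 2.43, 2.497, 2.11 and 5.89 CPM in mesenchyme, and Fgfr3 40.2, 54.5, 42.01 and 35.5 CPM in epithelium and 1.47, 1.04, 2.03 and 0.645 CPM in mesenchyme. Fgf9 and Fgfr3, the only receptor listed for it, were thus high in the same 4 libraries (log2 differences 4.98 ± 0.30 and 5.06 ± 0.43).

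**Figure D2:**
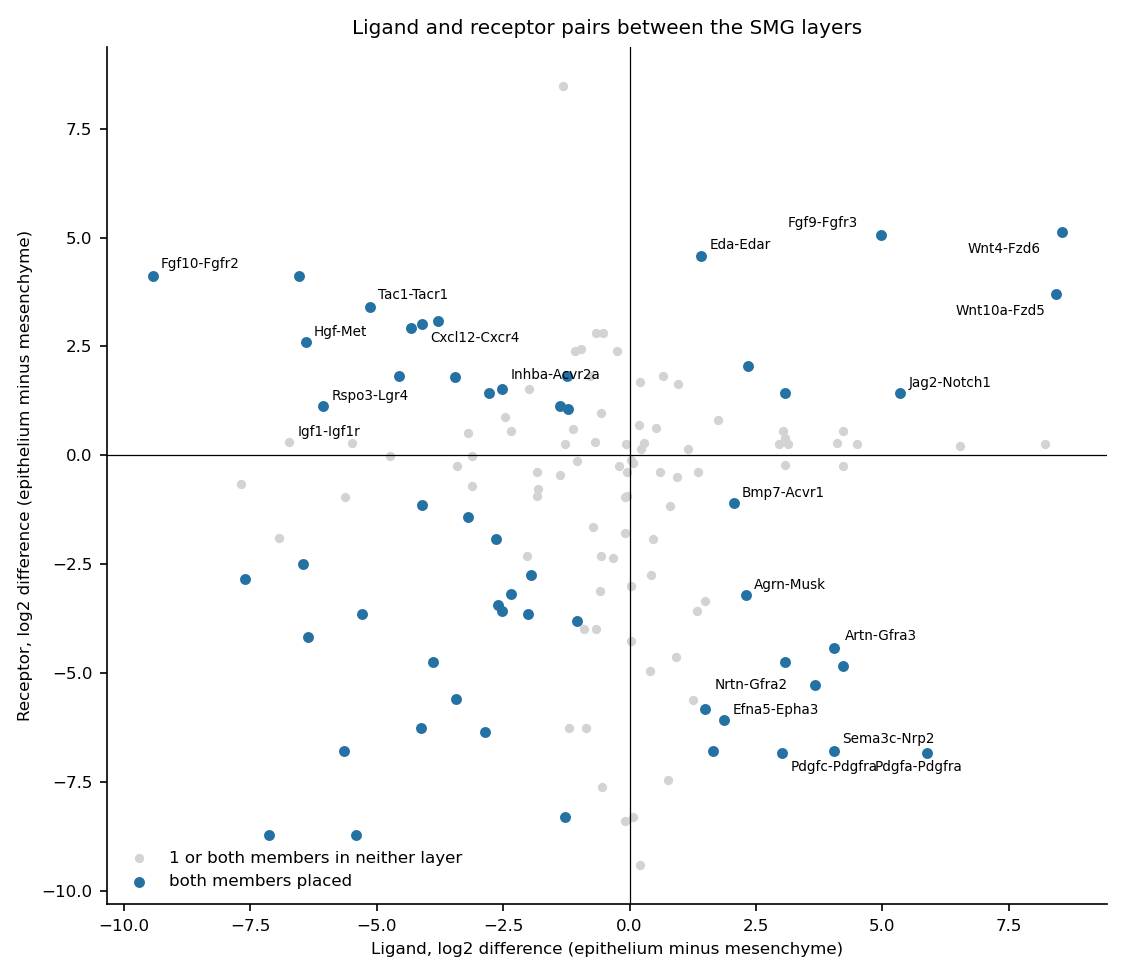
Each point is a ligand and receptor pair with both genes tested, at the ligand's log2 difference (x, epithelium minus mesenchyme) and the receptor's (y), with pairs whose members were both placed in a layer in blue and the rest in grey. Blue points at the upper left are the 15 pairs with a mesenchymal ligand and an epithelial receptor, and those at the lower right the 12 pairs of the reverse kind, Pdgfa with Pdgfra among them.

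Transcription factors had a median near 0, with families that leaned to either layer. Of 14 grainyhead, p53 and AP-2 genes, factors of stratified and barrier epithelia, 12 were tested, 10 were higher in epithelium, 8 of them by at least 4-fold, and 1 was lower, with a median of 5.83. Trp63, which maintains basal epithelial cells (ENSMUSG00000022510, GRCm38 chromosome 16, 25683763 to 25892102, plus strand), had 679, 645, 583 and 597 CPM in epithelium and 6.45, 5.801, 11.4 and 2.98 CPM in mesenchyme. Its relative Trp73, of multiciliated cells and neurons in other tissues, had 40.02, 39.03, 38.6 and 35.9 CPM in epithelium and 0.251, 0.807, 0.0862 and 0.242 CPM in mesenchyme. Grhl3, a barrier factor, had 146, 166, 174 and 186 CPM in epithelium and 0.922, 0.499, 0.517 and 0.242 CPM in mesenchyme. The mesenchyme libraries stayed below the epithelial ones for all 3 genes, whose log2 differences were 6.56 ± 0.63, 6.74 ± 0.58 and 8.26 ± 0.80 (adjusted p = 2.06e-06, 4e-07 and 2.09e-06). Tfcp2, a broadly expressed grainyhead relative, was the member on the other side (-0.41 ± 0.08). Of 28 tested sine oculis (Six2 and relatives), EYA and TALE homeobox genes, a network of placodes and organ buds, 15 were higher and 6 lower. Six2, a progenitor factor of the kidney, had 124, 155, 169 and 216 CPM in epithelium and 10.3, 9.45, 7.33 and 19.9 CPM in mesenchyme. Meis1, a TALE factor that works with PBX and HOX proteins, had 431, 400.2, 405 and 417 CPM in epithelium and 36.8, 28.5, 14.9 and 68.6 CPM in mesenchyme. Six2 and Meis1 were higher in all epithelial libraries (3.82 ± 0.38 and 3.47 ± 0.44), as were Eya2 (2.38 ± 0.54) and Irx2 (4.63 ± 0.88). Eya4 was mesenchymal (-2.27 ± 0.27).

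Single epithelial members came from many other families. Isl2, a LIM homeobox factor best known from motor neurons, had 52.2, 61.2, 50.3 and 54.1 CPM in epithelium and 0.335, 0.576, 0.6897 and 0.242 CPM in mesenchyme. Klf5, a factor of proliferating epithelia, had 124, 119.7, 158 and 158 CPM in epithelium and 2.56, 3.03, 2.802 and 2.4998 CPM in mesenchyme. No mesenchyme value came near an epithelial one for either gene. The log2 differences were 6.87 ± 0.53 and 5.68 ± 0.32 (adjusted p = 7.81e-08 and 5.48e-09). Elf5, an ETS factor of glandular epithelia, differed by 7.74 ± 0.93, the keratinocyte factor gene Zfp750 by 6.63 ± 0.67, and Ovol1 and Ovol2, repressors of mesenchymal genes, by 6.86 ± 0.74 and 7.16 ± 0.83. Zfp750 stood against a quiet group, the 336 tested ZFP-numbered zinc finger genes, of which 58 were higher and 97 lower but only 1 and 6 by at least 4-fold. The 12 periderm markers, all 12 higher in epithelium, moved with this side, and their part in it was not tested.

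Homeobox families of facial patterning were more often lower in epithelium. Of 19 tested paired-class genes 5 were higher in epithelium and 12 lower (median -3.22), and of 25 NK-like genes, which include the DLX group, 6 and 13 (median -2.42). Goosecoid (Gsc), a factor of ventral jaw mesenchyme, had 0.393, 0.556, 0.476 and 0.222 CPM in epithelium and 111, 145, 83.3 and 127 CPM in mesenchyme. Dlx2, which patterns the jaw arches, had 0.785, 1.32, 3.08 and 0.4803 CPM in epithelium and 73.2, 90.2, 99.7 and 77.98 CPM in mesenchyme. Osr1, of the odd-skipped zinc fingers, had 1.96, 3.47, 6.995 and 3.62 CPM in epithelium and 373, 355, 527 and 318 CPM in mesenchyme. All 3 were higher in every mesenchyme library, with log2 differences of -8.12 ± 0.79, -5.91 ± 0.84 and -6.61 ± 0.37 (adjusted p = 1.96e-06, 6.37e-05 and 9.22e-09), and Dlx2 and Osr1 had their epithelial maximum in replicate 3. Against the majority, Tlx1, a factor required for spleen development (5.92 ± 0.37), and Pax9, of pharyngeal and tooth development (2.34 ± 0.32), were epithelial. Among nuclear receptors, 15 higher and 14 lower of 40 tested, Nr5a2 had 0.536, 0.799, 0.916 and 0.0739 CPM in epithelium and 116, 115, 133 and 70.1 CPM in mesenchyme, and Nr2f1 differed by -6.54 ± 0.62. Nr5a2, known from liver, pancreas and steroid-making tissues, was thus a mesenchymal gene here (-7.53 ± 0.48, adjusted p = 2.01e-08). Klf14, an imprinted KLF gene, was mesenchymal too (-5.67 ± 0.37), against 6 higher and 8 lower of 24 KLF and SP genes. Barx1, chosen after its values were seen, had the highest level per kilobase of the mesenchymal factors, 442 ± 56.8 CPM per kilobase (SD, n = 4) against 49.5 in epithelium.

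**Figure D3:**
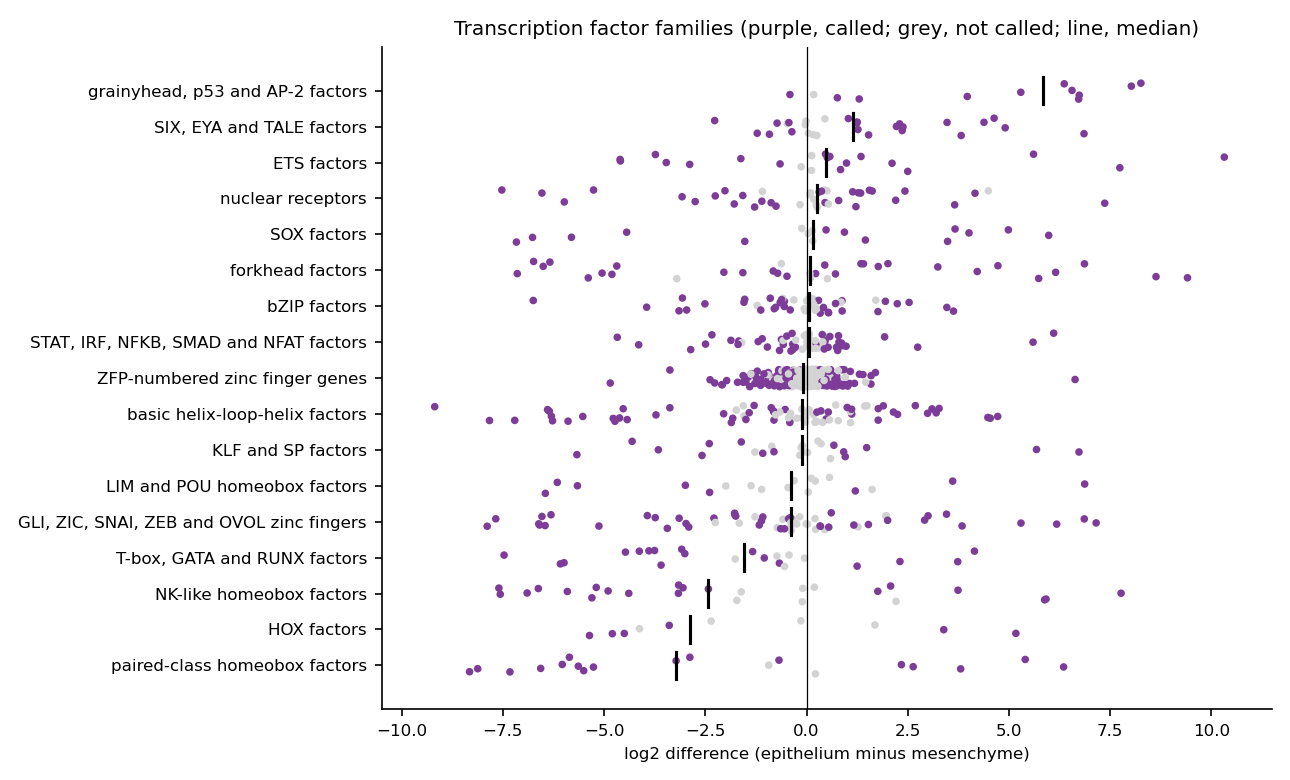
Each point is a transcription factor gene tested, placed at its log2 difference (epithelium minus mesenchyme) in a row for its family, purple when called and grey otherwise, with a black line at the family median. Grainyhead, p53 and AP-2 factors lie to the right with a median of 5.83, paired-class factors to the left at -3.22, and the ZFP-numbered genes crowd around 0.

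Promoters were searched for 8 motifs, on both strands, in windows of 250 bases before to 50 after each RefSeq gene start (GRCm38.p6). The table holds a window for 66.02% of the 18886 gene symbols tested, and for 64.6% and 64.2% of those higher and lower by at least 4-fold. With fewer than 80% of a set covered, a check over these gene sets is void, and the shares below describe the windows at hand only. No difference between shares, by bin, CpG number or motif, was tested. A gene can have several windows, so windows are not independent. The genes higher and lower by at least 4-fold that had windows numbered 787 and 1356. CACCTG is an E-box that ZEB and SNAI repressors are known to bind, though not they alone. It was in 34.9% of 1000 windows of genes higher in epithelium and 16.1% of 1720 windows of genes lower in epithelium. Its share was 18.9% of the windows of all genes tested and 20.2% of all 32851 windows. Over bins of the log2 difference the share was 11.3% below -6, 15% from -6 to -4, 17.9% from -4 to -2, 19.1% from -2 to -1 and 15.8% from -1 to 0, with no steady order below 0. Above 0 it was 18.2% from 0 to 1, 26.7% from 1 to 2, 31.97% from 2 to 4, 33.5% from 4 to 6 and 45.6% above 6. In windows with fewer than 10 CpG dinucleotides it was 30.3% against 15.4% for the higher and lower genes, and with 10 or more 38.3% against 16.9%. The ratio between higher and lower genes was smaller for each of the other motifs. The GC box GGGCGG was in 52.8 and 41.9% of windows of higher and lower genes (58.7% of all genes tested, 35.7% of all windows), the AP-1 motif TGANTCA in 9.0 and 7.5% (5.30 and 7.81%), the TATA box TATAAA in 8.10 and 11.2% (7.64 and 13.6%), the TEAD motif GGAATG in 13.2 and 15.2% (12.7 and 14.7%), and the homeobox motif TAATTA in 2.60 and 4.71% (2.84 and 5.29%). The grainyhead motif AACCGGT was in 1.70 and 1.22% (1.43 and 1.02%), and CATATG, an E-box of TWIST and HAND factors, in 2.80 and 3.08% (1.96 and 3.91%). Among the other E-boxes of the form CANNTG, looked at after the first result was seen, CAGCTG was in 18.1 and 20.99% (16.1 and 16.3%) and CAGATG in 14.9 and 17.9% (12.3 and 17.2%), and of the 8 looked at, the widest gap between higher and lower genes was that of CAGATG.

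Values of ZEB and SNAI genes are given here as well, and a link between them and the motif shares was not tested. Other factors that may bind the same letters are not listed here. Zeb2 had 0.536, 0.729, 0.659 and 0.185 CPM in epithelium and 48.3, 52.8, 67.9 and 37.8 CPM in mesenchyme. Zeb1 and Snai1, chosen after their values were seen, had 0.718 ± 0.394 and 1.75 ± 0.1499 CPM (SD, n = 4) in epithelium and 63.6 ± 9.32 and 26.8 ± 3.96 in mesenchyme. All 3 were mesenchymal (-6.60 ± 0.75, -6.46 ± 0.49 and -3.93 ± 0.40), while Snai2 was present in both layers with 114, 118, 122 and 136 CPM in epithelium and 171, 152, 183 and 137 CPM in mesenchyme, a small difference that was called (-0.40 ± 0.12, adjusted p = 0.0132). The 6 windows printed here serve as examples, chosen after the search, 4 from epithelial genes with several matches and 2 from mesenchymal genes with none. They hold the 250 bases before the start, 5′ to 3′ on the gene's strand, with the E-box on either strand in capitals (CACCTG, or CAGGTG for the other strand). The Spint2 window is chr7:29281978-29282227 (minus strand), that of Elf5 chr2:103411848-103412097 (plus strand), of Galnt3 chr2:66124794-66125043 (minus strand), of Wnt9b chr11:103749822-103750071 (minus strand), of Fgf10 chr13:118714449-118714698 (plus strand) and of Dlx2 chr2:71546755-71547004 (minus strand).
Spint2: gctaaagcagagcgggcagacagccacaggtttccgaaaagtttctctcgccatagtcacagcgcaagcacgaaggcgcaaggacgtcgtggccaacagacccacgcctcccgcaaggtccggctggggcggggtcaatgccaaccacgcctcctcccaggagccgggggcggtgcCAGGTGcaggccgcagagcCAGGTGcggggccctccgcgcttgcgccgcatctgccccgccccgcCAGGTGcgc
Elf5: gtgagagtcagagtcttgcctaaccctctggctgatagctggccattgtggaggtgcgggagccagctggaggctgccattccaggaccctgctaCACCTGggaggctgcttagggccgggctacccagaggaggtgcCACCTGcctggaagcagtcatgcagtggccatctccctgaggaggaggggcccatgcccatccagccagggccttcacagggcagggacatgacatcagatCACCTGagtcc
Galnt3: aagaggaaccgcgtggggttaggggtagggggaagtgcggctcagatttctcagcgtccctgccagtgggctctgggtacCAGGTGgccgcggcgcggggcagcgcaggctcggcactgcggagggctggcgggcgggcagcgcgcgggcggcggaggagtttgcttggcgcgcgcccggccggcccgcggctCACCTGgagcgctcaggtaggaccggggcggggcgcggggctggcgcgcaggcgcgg
Wnt9b: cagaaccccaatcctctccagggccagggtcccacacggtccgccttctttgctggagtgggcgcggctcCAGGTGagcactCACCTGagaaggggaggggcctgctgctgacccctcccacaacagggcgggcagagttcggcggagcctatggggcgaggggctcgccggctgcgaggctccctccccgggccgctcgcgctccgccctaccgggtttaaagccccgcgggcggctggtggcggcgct
Fgf10: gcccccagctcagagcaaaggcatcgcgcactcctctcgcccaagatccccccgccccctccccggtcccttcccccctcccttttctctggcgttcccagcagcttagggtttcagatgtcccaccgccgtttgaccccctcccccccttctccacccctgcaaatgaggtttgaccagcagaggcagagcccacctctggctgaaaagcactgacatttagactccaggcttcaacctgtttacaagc
Dlx2: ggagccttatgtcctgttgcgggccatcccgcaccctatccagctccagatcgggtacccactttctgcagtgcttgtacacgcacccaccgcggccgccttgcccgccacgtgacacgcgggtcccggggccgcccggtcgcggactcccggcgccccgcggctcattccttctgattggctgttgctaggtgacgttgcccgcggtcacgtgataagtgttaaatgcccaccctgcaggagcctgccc
The E-box matches lie 74, 55 and 9 bases before the start of Spint2, 155, 112 and 11 before that of Elf5, 170 and 57 before that of Galnt3 and 180 and 168 before that of Wnt9b. A second Elf5 window held none. The log2 differences of these genes were 5.61 ± 0.43, 7.74 ± 0.93, 6.38 ± 0.69 and 7.35 ± 0.67, and those of Fgf10 and Dlx2 -9.43 ± 0.79 and -5.91 ± 0.84. A match is a run of letters, not a measured binding site.

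**Figure D4:**
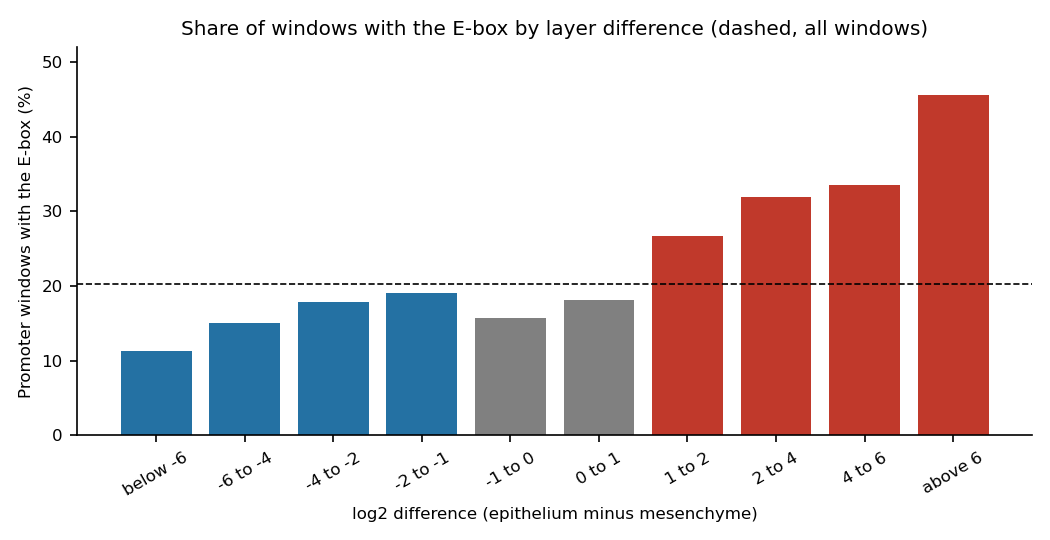
Bars give the percentage of promoter windows that hold the E-box CACCTG on either strand (y) for genes in bins of the log2 difference (x, epithelium minus mesenchyme), blue for mesenchymal, grey for small and red for epithelial differences, and the dashed line marks all windows (20.2%). Bars stand at 11.3% at the left end, 17.9% from -4 to -2, 19.1% from -2 to -1, 15.8% just below 0 and 45.6% at the right end. They describe the windows at hand only, and no difference between bars was tested.

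Several ion transport genes of fluid secretion were higher in the bud epithelium, although their families were not: chloride channels and aquaporins had 11 higher and 15 lower of 39 tested, and bicarbonate, proton and anion carriers 6 and 8 of 31. Slc12a2, the cotransporter that loads sodium, potassium and chloride into secretory cells, had 355, 369, 377 and 380.1 CPM in epithelium and 77.9, 69.95, 93.8 and 94.5 CPM in mesenchyme. Ano1, a calcium-activated chloride channel of secretory cells, had 32.95, 39.5, 38.7 and 27.5 CPM in epithelium and 1.68, 2.46, 5.56 and 1.69 CPM in mesenchyme. Cftr, the cyclic AMP-gated chloride channel, had 10.5, 17.5, 16.96 and 14.9 CPM in epithelium and 0.712, 2.19, 0.6897 and 0.484 CPM in mesenchyme. All 3 were higher in every epithelial library, by 2.14 ± 0.17, 3.61 ± 0.52 and 3.86 ± 0.78 log2 units (adjusted p = 8.81e-08, 5.05e-05 and 0.000895). In the same direction went the sodium channel subunit gene Scnn1g (4.69 ± 0.75), the calcium channel gene Trpv6 (3.599 ± 0.42) and Gabrp, a GABA receptor subunit of epithelia (7.80 ± 0.89). Slc26a9, an anion carrier, had 3.93, 5.76, 9.93 and 4.32 CPM in epithelium and 0, 0.0384, 0 and 0 CPM in mesenchyme, and from 1 read in mesenchyme its CPM ratio was 585 (95% counting interval 105 to 23138). Among carriers, Slc15a2, which imports small peptides, had 60.6, 55.5, 79.99 and 70.2 CPM in epithelium and 3.27, 1.42, 1.29 and 1.13 CPM in mesenchyme. Atp2c2, a calcium and manganese pump of the secretory pathway, differed by 6.97 ± 0.57, the neutral amino acid carrier gene Slc7a10 by 5.01 ± 0.31 and the glucose carrier gene Slc2a1 by 1.61 ± 0.13.

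Channel families of excitable cells were more often lower in epithelium. Of 73 tested potassium channel genes 15 were higher in epithelium and 38 lower, with a median of -1.29. Of 47 ligand-gated channel genes 5 were higher and 25 lower (median -1.50), and of 66 sodium, calcium and TRP channel genes 16 and 28. Kcne4, a subunit that damps potassium channels (ENSMUSG00000047330, GRCm38 chromosome 1, 78816758 to 78820028, plus strand), had 0.107, 0.0347, 0.476 and 0.0369 CPM in epithelium and 26.6, 27.9, 33.02 and 44.996 CPM in mesenchyme. The glutamate receptor gene Gria1 had 0, 0.0695, 0.183 and 0.0369 CPM in epithelium and 13.1, 12.8, 14.6 and 7.82 CPM in mesenchyme. Gabra3, a GABA receptor subunit of neurons, had 0.4998, 0.0695, 0.1099 and 0 CPM in epithelium and 13.6, 10.03, 6.897 and 13.5 CPM in mesenchyme. Each was near 0 in epithelium and higher in all 4 mesenchyme libraries, with log2 differences of -7.63 ± 0.72, -7.29 ± 0.85 and -5.97 ± 0.61 (adjusted p = 1e-06, 4.58e-06 and 8.48e-07). Kcne3 (-6.63 ± 0.61), Kcnb2 (-5.99 ± 0.41) and the calcium channel subunit gene Cacna2d1 (-4.86 ± 0.93) followed. Neuronal markers (6 of 13 lower in epithelium, 1 higher, Prph at 0 there) and skeletal muscle markers (13 of 15 lower) also summed to more in mesenchyme, and their part in these channels was not tested. Against the majority, the leak channel gene Kcnk1 had 94.1, 96.02, 98.7 and 101 CPM in epithelium and 14.2, 9.45, 10.001 and 14.1 CPM in mesenchyme, and Kcnj15, an inward rectifier, differed by 2.39 ± 0.44. The glycine receptor subunit gene Glrb was not called, at 25.8 ± 1.15 and 27.96 ± 2.31 CPM.

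Intracellular carriers were close to even. Of 44 tested mitochondrial carriers 11 were higher and 10 lower, and 0 and 2 by at least 4-fold. The aspartate and glutamate carriers, a pair of paralogs that serve the malate shuttle, took opposite layers. Slc25a12 had 17.8, 15.8, 17.2 and 14.9 CPM in epithelium and 96.6, 96.8, 95.95 and 77.7 CPM in mesenchyme. Slc25a13 had 92.7, 92.5, 88.1 and 83.8 CPM in epithelium and 31.4, 36.2, 37.8 and 33.4 CPM in mesenchyme. The first was thus higher in every mesenchyme library (-2.48 ± 0.17, adjusted p = 1.65e-08) and the other in every epithelial library (1.36 ± 0.16, adjusted p = 4.14e-06). Slc25a4, the ADP and ATP carrier with the highest level per kilobase of all transporters in both layers (190 ± 5.52 and 218 ± 27.5 CPM per kilobase, SD, n = 4), was not called (-0.20 ± 0.09, adjusted p = 0.0854). It was called without mesenchyme replicate 2 or 3 (-0.27 and -0.25, adjusted p = 0.0452 and 0.0476). Clcn5, an endosomal chloride and proton exchanger, had 31.8, 24.3, 23.5 and 20.8 CPM in epithelium and 213, 241, 261 and 203 CPM in mesenchyme. Together with Abcd2, a peroxisomal fatty acid carrier (-6.71 ± 0.56), it was a mesenchymal gene (-3.19 ± 0.16, adjusted p = 9.26e-10).

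Among enzymes, membrane and secreted serine proteases had the largest share of members on the epithelial side. Of 114 genes 48 were tested, 23 were higher and 13 lower, and 17 and 10 by at least 4-fold (median 0.92). Matriptase (St14), a protease of epithelial barriers, had 160.1, 167, 157 and 162 CPM in epithelium and 0.461, 0.154, 0.0862 and 0.121 CPM in mesenchyme. Its inhibitor gene Spint1 had 105, 110.1, 103 and 112 CPM in epithelium and 0.335, 0.384, 0.216 and 0.524 CPM in mesenchyme. Spint2, a second inhibitor of it, had 388, 406, 387 and 447 CPM in epithelium and 7.205, 11.7, 5.91 and 8.39 CPM in mesenchyme. The protease and both inhibitors were thus higher in the same 4 libraries (9.59 ± 0.86, 8.17 ± 0.52 and 5.61 ± 0.43). Tmprss11d and Tmprss11b, neighbouring protease genes of surface epithelia, were counted 1 and 3 times in mesenchyme. That gave CPM ratios of 1961 (95% counting interval 352 to 77487) for the first and 478 (163 to 2319) for the other. On the mesenchymal side were Corin, which activates natriuretic peptides (-8.19 ± 0.82), and fibroblast activation protein (Fap), which had 0.321, 0.625, 0.183 and 0.333 CPM in epithelium and 71.4, 50.7, 51.4 and 68.9 CPM in mesenchyme (-7.34 ± 0.36, adjusted p = 8.53e-10). The cathepsin gene Ctsk, a collagen-degrading enzyme of osteoclasts and fibroblasts, was mesenchymal (-6.65 ± 0.69), and the general processing protease gene Furin was not called (-0.11 ± 0.13, adjusted p = 0.5). Inhibitor genes as a group had 10 higher and 19 lower of 44 tested, with Wfdc2 (5.47 ± 0.49) epithelial and Serpinf1 (-4.32 ± 0.24) and Timp3 (-3.73 ± 0.33) mesenchymal.

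Cross-linking enzymes of the matrix and the cornified envelope were more often lower than higher in epithelium. Of 31 tested 6 were higher and 20 lower (median -1.60). Lysyl oxidase (Lox), which cross-links collagen and elastin, had 0.607, 0.104, 2.56 and 0.333 CPM in epithelium and 45.9, 33.9, 26.4 and 51.6 CPM in mesenchyme. Tgm1, the transglutaminase of the cornified envelope, had 6.75, 7.74, 6.26 and 4.51 CPM in epithelium and 0, 0.115, 0.474 and 0.0806 CPM in mesenchyme. Padi3, a peptidylarginine deiminase of hair follicles and epidermis, had 10.7, 9.13, 10.4 and 9.2005 CPM in epithelium and 0.0419, 0, 0.216 and 0.323 CPM in mesenchyme. Lox was high in all mesenchyme libraries (log2 difference -5.46 ± 0.87), as was its relative Loxl1 (-3.85 ± 0.31), while Tgm1 and Padi3 were high in all epithelial ones (5.22 ± 0.77 and 6.05 ± 0.70). The transglutaminases were found on both sides, with Tgm2 (-3.93 ± 0.55) and F13a1 (-3.70 ± 0.59), the catalytic subunit of the clotting factor that cross-links fibrin, lower in epithelium. P4ha3, a collagen prolyl hydroxylase, was epithelial (3.15 ± 0.27), and P4hb, the shared subunit of such enzymes, was not called, at 876 ± 18.2 and 891 ± 42.5 CPM (adjusted p = 0.771).

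Enzymes of hydrogen peroxide, sphingolipids and glycans had epithelial members with wide differences. Duox1, which makes hydrogen peroxide at apical membranes (ENSMUSG00000033268, GRCm38 chromosome 2, 122315672 to 122347972, plus strand), had 16.03, 20.003, 23.001 and 13.6 CPM in epithelium and 0.0838, 0.115, 0.0862 and 0.0403 CPM in mesenchyme. Its maturation factor gene Duoxa1 had 22.4, 29.4, 27.9 and 27.5 CPM in epithelium and 2 reads in all of mesenchyme, a CPM ratio of 1312 (95% counting interval 363 to 10840). Gpx2, a glutathione peroxidase of epithelia, had 9.03, 4.48, 9.85 and 9.903 CPM in epithelium and 1 read in mesenchyme (CPM ratio 809.6, 95% counting interval 145 to 32011). All 4 epithelial libraries lay above all 4 of mesenchyme for these genes, and Duox1 differed by 7.71 ± 0.68 (adjusted p = 2.49e-07). As a family the glutathione and antioxidant enzymes were even, 22 higher and 23 lower of 59. Sphingolipid enzymes had 18 higher and 11 lower of 40, and 6 and 2 by at least 4-fold. Sptssb, a small subunit of the first enzyme of sphingolipid synthesis, had 25.4, 38.2, 20.4 and 33.6 CPM in epithelium and 0.0838, 0.0384, 0 and 0.0806 CPM in mesenchyme. Cers3, the ceramide synthase of barrier lipids, had 29.7, 39.97, 40.1 and 41.5 CPM in epithelium and 1.55, 1.54, 1.08 and 0.645 CPM in mesenchyme. Both were epithelial in every library (9.04 ± 0.93 and 4.97 ± 0.56), as was Cers4 (2.90 ± 0.26). Galnt3, which starts mucin-type O-glycans, differed by 6.38 ± 0.69.

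Small-molecule enzymes took both sides. Of 11 tested carbonic anhydrases, which hydrate carbon dioxide, 1 was higher in epithelium and 7 lower. Car12, a membrane form, had 389, 339.5, 362 and 293 CPM in epithelium and 14.7, 14.3, 30.7 and 17.01 CPM in mesenchyme. Car14, another membrane form, had 0.4998, 0.556, 1.68 and 0.259 CPM in epithelium and 70.96, 77.9, 68.9 and 64.3 CPM in mesenchyme. Car12 was thus high in all 4 epithelial libraries (4.18 ± 0.56, adjusted p = 3.85e-05) and Car14 in all 4 of mesenchyme (-6.55 ± 0.45, adjusted p = 3.05e-08), with the cytosolic Car2, which red cells also make, on the mesenchymal side (-3.67 ± 0.43). Erythroid marker RNA, given above, moved with Car2, and its part in the value was not tested. Of 24 tested cytochrome P450 genes 2 were higher and 14 lower. Cyp1b1, an enzyme of steroids and retinoids, had 0.714, 0.625, 2.38 and 2.96 CPM in epithelium and 163, 149, 83.6 and 174 CPM in mesenchyme, while Cyp2w1 (7.20 ± 1.15) was epithelial. Aldh1a7, an aldehyde dehydrogenase close in sequence to Aldh1a1, had 84.8, 62.5, 64.1 and 55.1 CPM in epithelium and 0.251, 0.269, 0.6897 and 0.282 CPM in mesenchyme, and the split of reads between the paralogs is uncertain. The carbonyl reductase gene Cbr2 (8.04 ± 0.84) and Gldc, of the glycine cleavage system (3.59 ± 0.36), were epithelial. Lipid mediator enzymes on the mesenchymal side were Enpp2, which makes lysophosphatidic acid (-6.25 ± 0.62), and the prostacyclin synthase gene Ptgis (-5.48 ± 0.49). DNA and histone modifying enzymes had 19 higher and 18 lower of 68 but 0 and 2 by at least 4-fold. Uhrf1, which maintains DNA methylation at replication, differed by 1.10 ± 0.16, and the most counted member without a call was Prmt1 (0.19 ± 0.08, adjusted p = 0.0685), which was called without mesenchyme replicate 4 (0.23, adjusted p = 0.0416). Per kilobase, the member of the enzyme role with the highest level in epithelium was the peroxidase gene Prdx1 (343 ± 33.9 CPM per kilobase, SD, n = 4). In mesenchyme it was Serpinh1 (457 ± 57.2), a collagen chaperone gene listed with the inhibitors by its family name and not an enzyme gene. P4hb came next in mesenchyme (311 ± 14.9). Prdx1 and Serpinh1 were chosen after their values were seen. Prdx1 was 249 CPM per kilobase in mesenchyme (log2 difference 0.46 ± 0.13, adjusted p = 0.00707), a call lost without epithelium replicate 4 (adjusted p = 0.0571), and Serpinh1 297 in epithelium (-0.62 ± 0.10, adjusted p = 8.42e-05).

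**Figure D5:**
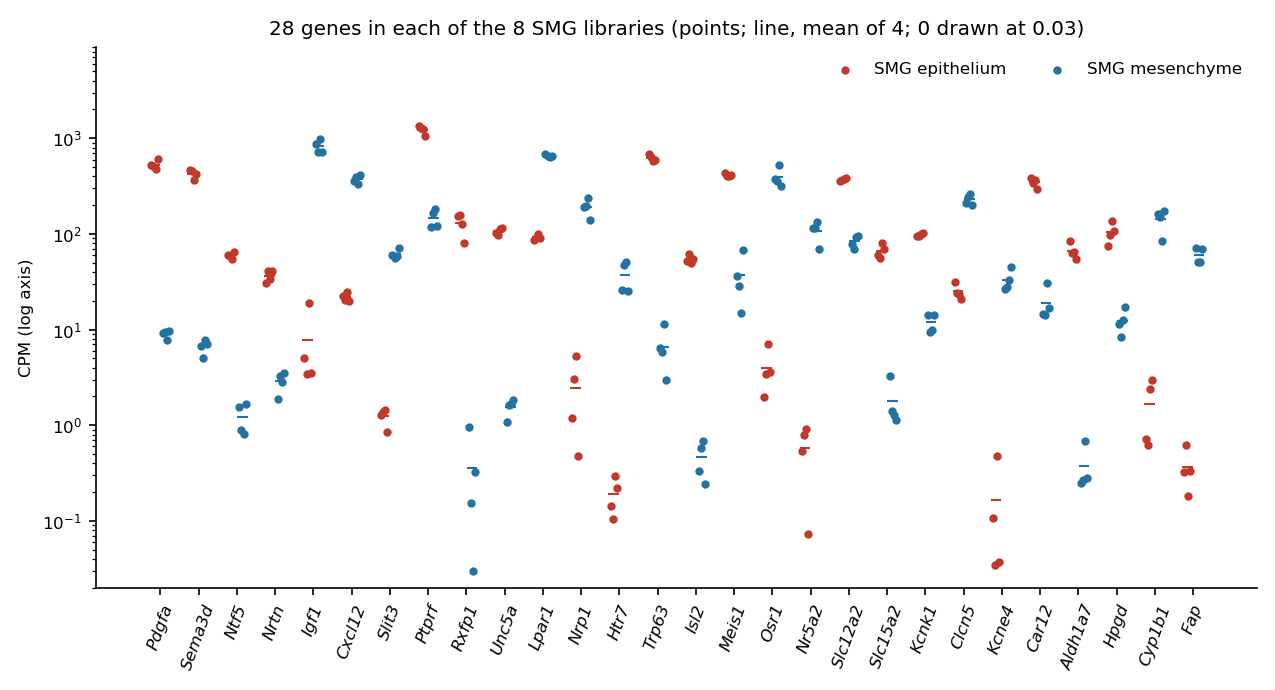
Points give the CPM (y, log axis) of 28 genes (x) in each of the 4 SMG epithelium (red) and 4 SMG mesenchyme (blue) libraries, with a line at each mean and values under 0.03 CPM drawn at 0.03. Red and blue points do not overlap for any of the genes shown, from Pdgfa at 478 to 609 CPM in epithelium to Fap at 50.7 to 71.4 CPM in mesenchyme. The naming rule required this of the widest-changing family members, and 9370 of all 18940 genes tested had no overlap either.

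The last comparison asked which of these genes change layer between the glands. PG samples were of E12 and SMG samples of E11.5, so gland and day cannot be told apart. Across all genes, protein-coding or not, 1.44% were called in opposite directions in the glands. Each also had a call for the difference itself, the interaction of layer and gland. Among family members, all protein-coding, these were 82 of 3012 tested, 2.72%. They fell into 47 that were higher in SMG epithelium and PG mesenchyme and 35 of the reverse kind. Pax1, a factor of pharyngeal pouches, had 6.71, 9.27, 9.67 and 12.7 CPM in epithelium and 0.251, 0.115, 0.0862 and 0 CPM in mesenchyme of the SMG. In PG it had 0.882 ± 1.39 CPM in epithelium (SD, n = 3) and 118 ± 88.8 in mesenchyme (SD, n = 4). The difference between its layer differences was 13.39 ± 1.98 log2 units (adjusted p = 0.000686). Pax1 was thus epithelial in the SMG and mesenchymal in the PG, where its libraries varied widely.

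Enzymes with the same turn were Hpgd, Dpyd and Ddc. Hpgd, which inactivates prostaglandins, had 75.4, 97.1, 137 and 107 CPM in epithelium and 11.4, 8.34, 12.5 and 17.1 CPM in mesenchyme of the SMG, and 6.94 ± 0.759 and 33.1 ± 11.9 CPM in the PG layers in the same order. Dpyd, which breaks down pyrimidines, had 16.99, 16.6, 17.03 and 16.5 CPM in epithelium and 6.62, 5.301, 5.04 and 6.65 CPM in mesenchyme of the SMG, and 4.19 ± 0.878 and 65.8 ± 5.01 CPM in the PG. Ddc, which makes dopamine and serotonin, had 74.7 ± 14.02 and 21.5 ± 5.396 CPM in the SMG and 4.32 ± 1.30 and 16.2 ± 2.15 in the PG. Their interactions were 5.33 ± 0.43, 5.48 ± 0.20 and 3.70 ± 0.30 log2 units (adjusted p = 3.68e-06, 5.94e-10 and 2.39e-06). The reverse turn was seen for Foxp2, a forkhead factor, with 22.96 ± 2.46 and 94.6 ± 5.72 CPM in SMG epithelium and mesenchyme and 75.9 ± 19.6 and 35.6 ± 8.17 in the PG. Gata2 (interaction -5.53 ± 0.53), the water channel gene Aqp4 (-5.18 ± 0.64) and the parathyroid hormone-related peptide gene Pthlh (-4.76 ± 0.60) joined it. Leaving out both the second PG epithelium and the first PG mesenchyme library, which were seen to stand apart in earlier work on these data, gave 83 such members, and without SMG epithelium replicate 3 it was 80.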

How the data were processed

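RNA of SMG and PG epithelium and mesenchyme was sequenced from SMART-Seq v4 and Nextera XT libraries on an Illumina HiSeq, per the labels' protocols. The authors deposited a table of raw counts per gene and a table of CPM, both for all 15 libraries. Aligner STAR 2.5.2a, builds GRCm38.p3 and mm10, and DESeq2, edgeR and limma are named, per the submitters' processing notes, while the counting program and its use of strand were stated nowhere in those sources. Of 173 of the genes named with values, 40 share exon bases with another gene, 37 of them on the opposite strand, where reads of the 2 genes cannot be told apart. Some genes that the naming rule allows are not reported here. Spike-in rows were left out, and 0 columns stayed unmapped.

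Counts of all 15 libraries entered 1 fit by group (edgeR 4.0.16 in R 4.3.3, TMM factors, filterByExpr, robust quasi-likelihood test), with Benjamini-Hochberg adjustment over 18940 genes and a threshold of 0.05. Log2 differences are epithelium minus mesenchyme ± standard error, and per-library values are listed for replicates 1, 2, 3 and 4. A gene is written as higher, lower, epithelial or mesenchymal only where it passed. CPM ratios with exact counting intervals replace fitted values where a layer had 1 to 3 reads, and intervals cover counting error only. The script was tested on simulated data. Members, families, pairs and lists were chosen with earlier results of these data known. Families follow gene symbols, so a few genes sit in one by name alone. Genes were named by rule: per family the up to 4 called members of each direction with the widest difference, at least 5 CPM in the higher layer and no overlap between libraries, up to 2 called against the majority, the most counted member without a call, and all genes of pairs, marker lists and gland-opposite calls. Alternatives were RLE factors, no filter, DESeq2 1.42.0, limma 3.58.1 on log2(CPM + 1 or 0.25), other sample sets, a replicate block and leaving out each library. Whole reads recovered from the deposited CPM table, an alternative chosen after seeing the data, were whole for 100% of values within 0.001 reads and gave 4765 higher and 5061 lower genes, the same counts as the fit on the deposited counts. Promoter windows are RefSeq's (GRCm38.p6). Gene coordinates are those of the GENCODE annotation of GRCm38.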

Additional observations from a re-analysis of the deposited data

Results flagged for a closer look

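Of 245 groups of 4 values looked at, 17 held 1 library far from the other 3, where chance gives about 1 group in 20. In SMG epithelium replicate 3, Igf1 was 19.1 CPM against 3.47 to 4.998 in the other 3 libraries and Epha3 19.3 against 1.74 to 2.499, and this library also held the highest level of mesenchymal markers. In SMG mesenchyme replicate 3, Gfra3 was 11.6 CPM against 4.11 to 5.28 and the sum of Schwann precursor and crest markers 348 against 173 to 182. The same library was high in Pax9 (24.7 CPM), Car12 (30.7) and Tgm2 (11.6) and low in Foxp2 (86.0). Low values in mesenchyme were those of Hgf in replicate 2 (7.03 CPM), Gdf5 and Slc25a12 in replicate 4 (14.8 and 77.7) and Furin in replicate 1 (64.7), and the chondrocyte marker sum was high in replicate 2 (385). In epithelium Zfp750 was high in replicate 4 (46.6 CPM), Gpx2 low in replicate 2 (4.48), and Cers3 and Tmprss11b low in replicate 1 (29.7 and 9.85).

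The layer difference itself differed between the SMG at E11.5 and the PG at E12 for 8 genes given here, by the interaction term of the edgeR fit (adjusted over all genes). The SMG minus PG difference was 13.39 log2 units for Pax1, 5.48 for Dpyd, 5.33 for Hpgd and 3.70 for Ddc. It was -3.13 for Foxp2, -4.76 for Pthlh, -5.18 for Aqp4 and -5.53 for Gata2.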

How the results depend on the processing

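Of 477 recomputed counts and shares 462 stayed within 1.5 times of the reported value, or within the spread. With limma on log2(CPM + 1), a scale that shrinks differences of low genes, genes higher and lower by at least 4-fold numbered 649 and 856. The counts lower were then 43 ligands and 74 receptors, and 27 receptors were higher. The same scale gave 57 and 76 transcription factors, 28 and 31 transporters or channels and 63 and 75 enzymes, higher and lower. With log2(CPM + 0.25) 1378 genes and 64 transporters or channels were lower by that size. Without a fold threshold 11 pairs had both members epithelial, and among genes higher by at least 2-fold 31.1% of windows held the E-box. Leaving out 1 SMG library at a time gave 4153 to 4680 genes higher and 4684 to 5030 lower, 1174 to 1258 and 2024 to 2112 by at least 4-fold, and 72 to 83 members with opposite layers in the glands. Of 173 named genes Il33, Edn2 and Prdx1 lost their calls with single libraries left out, as given in the report, and Slc25a4 and Prmt1 gained one. Edn2 also lost its call with no filter on low counts (adjusted p = 0.0638), without PG epithelium replicate 2 and PG mesenchyme replicate 1 (0.050046) and with limma on log2(CPM + 1) (0.603) and log2(CPM + 0.25) (0.256), and Il33 with limma on log2(CPM + 1) (0.0898). Replicate numbers are shared between the layers. Same-numbered libraries deviated together by correlations of 0.0136, 0.142, 0.193 and 0.283 in order of number, not all above 0.1. No differently numbered libraries exceeded 0.0294. Epithelium 1 and mesenchyme 1 each correlated best with another number, so their pairing rests on the number alone. Every other library correlated best with its own number. Whether same-numbered libraries share embryos was not tested, and the main fit did not use the pairing. With the replicate block in the 8 SMG libraries 5056 genes were higher and 5037 lower (1082 and 1734 by at least 4-fold), and Vegfa (adjusted p = 0.0289), Slc25a4 (0.0491) and Prmt1 (0.0296) passed. Slc25a4 also passed without PG epithelium replicate 2 and PG mesenchyme replicate 1 (0.0347). Few reads limit Edn2 (23 in epithelium, 2 in mesenchyme) and Tacr1 (53 and 4).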
